A study of Mus musculus with 3 samples.

Results

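The thymus sections studied here contained 27 µm squares (bins) in which antibody transcripts held an unusually large share of all transcripts. Transcripts were counted as molecules by unique molecular identifiers (UMIs), and a bin was called immunoglobulin-rich when 7 genes (*Igkc*, *Jchain*, *Igha*, *Ighg1*, *Ighg2b*, *Ighg2c* and *Ighg3*) together held at least 2% of its UMIs. Only bins with 300 or more genes and no more than 30% of UMIs from the mitochondrial genome were kept. Of 56744 kept bins, 4449 were immunoglobulin-rich. They were selected on measured immunoglobulin share, so the immunoglobulin values below only describe them, and tests were made on the other genes alone. A bin can hold several cells of different types, and it is not a cell.

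Spatial transcriptomes were obtained from the thymus of 3 female C57BL/6 mice, with barcoded spots 4.8 µm apart. The 2 knockout (KO) mice carry the germline genotype Trp53-/-, and their sections are labelled KO1134 (17 weeks of age) and KO1308 (21 weeks). The wild-type (WT) mouse is Trp53+/+, and its section is labelled WT1101 (17 weeks). The sections held 31237062, 21089885 and 41581477 UMIs in that order. The bin number and median depth that the study lists for its section KO1308 lie nearer to those of the section labelled KO1134 here, so the labels of the 2 KO sections, and with them their ages, may be exchanged. The sections are named as labelled, and both are KO in either case. *Trp53*, which encodes p53 (chr11:69580359-69591873, plus strand), was at 12.5 CPM in the immunoglobulin-rich bins of KO1134 and at 24.1 CPM in those of KO1308, against 78.4 CPM in WT. CPM stands here for counts scaled in the usual way to the library total, taken over all UMIs outside the immunoglobulin genes except where stated. The levels followed the labels, and the transcript was not absent from either KO section.

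Plasma cells are the antibody-secreting end stage of the B lineage. They enlarge the endoplasmic reticulum (ER), in which antibody chains are made, folded and checked, under transcription factors such as XBP1, IRF4 and BLIMP1. The kappa light chain constant region is encoded by *Igkc*, heavy chain classes by *Igha* and the *Ighg* genes, and the J chain, which joins secreted IgA and IgM into larger complexes, by *Jchain*. The thymus is mainly an organ of T cell development and holds few B cells and plasma cells.

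Immunoglobulin-rich bins made up 9.17% of the kept bins of KO1134 (1104 of 12044, exact 95% binomial interval 8.66 to 9.70%), 14.7% of KO1308 (2564 of 17425, 14.2 to 15.2%) and 2.86% of WT (781 of 27275, 2.67 to 3.07%). These intervals cover counting error only, and with 1 WT section the genotypes were not compared by a test. The median share of the 7 genes in immunoglobulin-rich bins was 3.58% in KO1134, 2.86% in KO1308 and 3.59% in WT, and the largest share in a single bin was 23.5%, 19.2% and 22.4%. In KO1308, 54.6% of the immunoglobulin-rich bins lay between 2 and 3%, against 36.9% in KO1134 and 37.3% in WT. The bins of KO1308 were also the shallowest, with a median of 1046 UMIs per immunoglobulin-rich bin against 2972 in KO1134 and 1600 in WT. Just inside the threshold, bins at 2 to 2.1% held a median of 54.5 UMIs of the 7 genes in KO1134, 16 in KO1308 and 28 in WT, and just outside it bins at 1.9 to 2% held 58, 15 and 32.5. With at least 20 such UMIs also required, the share fell from 14.7 to 10.5% in KO1308, and was 9.03% in KO1134 and 2.59% in WT.

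The immunoglobulin-rich bins were found across each section and lay next to one another in the KO sections. At least 1 of the 8 surrounding bins was immunoglobulin-rich for 90.9% of them in KO1134, 91.5% in KO1308 and 72.2% in WT, whereas the same held for 26.7%, 32.6% and 13.6% of the other kept bins. Touching bins formed 236 groups in KO1134, 461 in KO1308 and 405 in WT. The largest group had 80 bins in KO1134 and 305 in KO1308 but 9 in WT, and groups of 10 or more bins held 55.5%, 63.8% and 0% of the immunoglobulin-rich bins. Group size depends on the share of immunoglobulin-rich bins, which was smallest in WT. The part of this share in the group sizes was not tested. The median distance to the edge of the kept bins was 271 µm for immunoglobulin-rich and 249 µm for other bins in KO1134, 108 and 81.0 µm in KO1308, and 108 and 85.4 µm in WT.

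**Figure D1:**
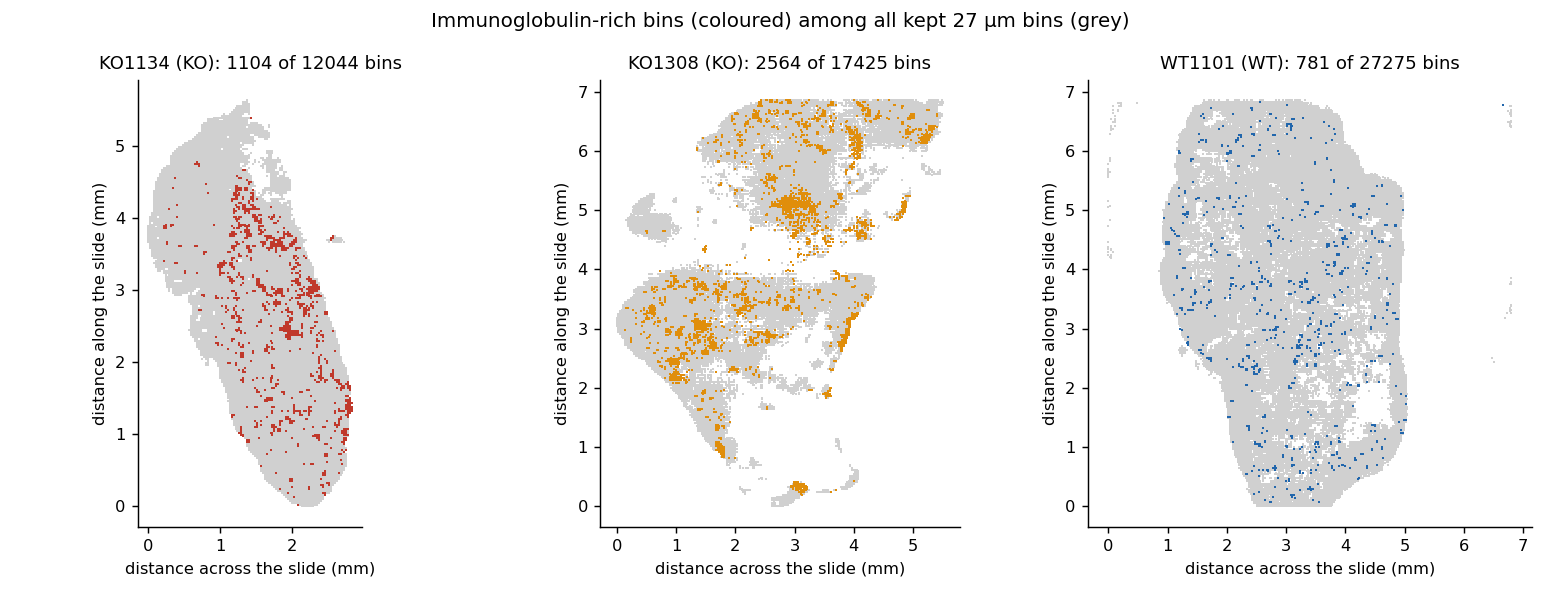
Position of immunoglobulin-rich bins (coloured) among all kept 27 µm bins (grey) in each section, with both axes as distance on the slide in mm. The 2 KO sections, with larger shares of coloured bins, show patches of touching coloured bins, and the WT section shows groups of at most 9.

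IgA was the most abundant heavy chain in the immunoglobulin-rich bins of every section. *Igha* held 38.8% of immunoglobulin UMIs in KO1134, 42.2% in KO1308 and 47.2% in WT. *Igkc* held 26.8%, 19.2% and 25.7%, and *Jchain* held 3.68%, 5.04% and 2.43%. Of the IgG heavy chains, *Ighg2c* led in KO1134 (15.6%, against 6.38% for *Ighg2b*), while *Ighg2b* led in KO1308 (12.2%, against 8.96% for *Ighg2c*) and in WT (8.82%, against 3.83%). *Ighm*, the IgM heavy chain, was not part of the selection. Its CPM values are scaled to all UMIs, immunoglobulin included, unlike the other CPM values here. The level was 2460 CPM in immunoglobulin-rich and 951 CPM in other bins of KO1134. It was at 3202 and 1237 CPM in KO1308, and at 2796 and 853 CPM in WT. *Ighm* was thus higher in the immunoglobulin-rich bins of every section. Its share of immunoglobulin UMIs was lower there, at 4.96%, 7.55% and 5.18% against 17.1%, 14.1% and 32.1%, in a total that the selecting genes raise by construction. Constant region genes carried 96.1%, 94.7% and 97.3% of immunoglobulin UMIs and the variable, diversity and joining segments 0.176%, 0.231% and 0.271%, so clones could not be followed.

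Single bins were often dominated by 1 heavy chain class. Among immunoglobulin-rich bins with at least 20 heavy chain UMIs, one class held at least 80% of these UMIs in most bins of KO1134 and WT but not of KO1308. IgA dominated 412 of 1069 bins (38.5%) in KO1134, 513 of 1617 (31.7%) in KO1308 and 401 of 632 (63.4%) in WT. IgG dominated 236 bins (22.1%), 123 (7.61%) and 135 (21.4%), and IgM 5, 8 and 27 bins. The rest, 38.9%, 60.2% and 10.9%, were mixed. *Ighm* was not among the 7 selecting genes, whereas *Igha* and the *Ighg* genes were. Bins with IgM were thus less readily selected, and the IgM counts are not comparable with those of IgA and IgG. *Jchain* UMIs per 100 heavy chain UMIs were 5.40 in IgA-dominated and 5.89 in IgG-dominated bins of KO1134, 6.69 and 5.33 in KO1308 and 3.16 and 4.31 in WT, so the order of the classes was not the same in each section. Lambda chains made up 5.56%, 10.05% and 15.5% of light chain constant region UMIs in IgA-dominated bins and 9.93%, 12.3% and 30.3% in IgG-dominated bins, higher with IgG in 3 of 3 sections.

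The first question for the non-immunoglobulin genes was whether these bins carry other transcripts of plasma cells. UMIs were summed over the immunoglobulin-rich bins and over the other kept bins of each section, and the 2 sums were compared within sections by edgeR's quasi-likelihood test with Benjamini-Hochberg adjustment, all immunoglobulin genes left out. Of 18768 genes tested, 89 (0.474%) were called higher and 217 (1.16%) lower in immunoglobulin-rich bins at an adjusted p below 0.05. Of the 89, 87 had a higher CPM in each of the 3 sections, as did 14.9% of all genes tested. Of the 217, 162 had a lower CPM in each section, as did 13.6% of all genes tested. Leaving out KO1134 gave 42 genes called higher and 142 lower, leaving out KO1308 gave 47 and 166, and no called gene named here turned direction. In summed bins, more cells of a type and more RNA per cell cannot be told apart.

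Several genes of plasma cell identity were higher in immunoglobulin-rich bins of all 3 sections. *Derl3* encodes an ER membrane protein that helps remove misfolded proteins and is a known plasma cell marker (chr10:75893413-75895941, plus strand). Its level was 35.9 CPM in immunoglobulin-rich and 7.72 CPM in other bins of KO1134, 33.6 and 8.86 CPM in KO1308, and 32.5 and 2.32 CPM in WT. The levels in immunoglobulin-rich bins were alike within their counting intervals (29.5 to 43.2, 27.3 to 40.9 and 23.3 to 44.1 CPM), and the other bins of the KO sections were above those of WT. The log2 fold change was 2.42 (SE 0.22, edgeR adjusted p = 1.19e-08). *Tnfrsf17* encodes BCMA, the receptor for the survival factor APRIL (chr16:11313812-11320074, plus strand). It was at 7.05 and 0.83 CPM in KO1134, at 3.73 and 1.38 CPM in KO1308, and at 10.3 and 0.536 CPM in WT, with a log2 fold change of 2.87 (SE 0.44, adjusted p = 1.04e-04). It was a rare transcript, with 22, 11 and 13 UMIs in the immunoglobulin-rich bins of the 3 sections.

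Of the 15 genes listed as plasma cell regulators and surface proteins, 9 rose, none fell, and the median log2 fold change was 0.76, against -0.0099 over all genes tested. *Xbp1*, the transcription factor of the secretory programme, was at 125 CPM in immunoglobulin-rich and 63.0 CPM in other bins of KO1134, at 179 and 102 CPM in KO1308, and at 115 and 82.1 CPM in WT (log2 fold change 0.76, SE 0.08, adjusted p = 2.07e-07). *Irf4*, a transcription factor needed for plasma cells, was at 47.4 and 30.7 CPM in KO1134, at 84.4 and 59.3 CPM in KO1308, and at 60.2 and 18.5 CPM in WT (log2 fold change 0.77, SE 0.14). *Sdc1* (syndecan-1, the surface marker CD138) was at 43.6 and 23.7 CPM, 54.6 and 37.8 CPM, and 44.4 and 18.3 CPM (log2 fold change 0.79, SE 0.12). The immunoglobulin-rich bins were thus higher in every section for these 3 genes, by a smaller factor than for *Derl3*. The elongation factor genes *Ell2* (log2 fold change 0.87) and *Eaf2* (0.92), the first of which helps process the secreted form of heavy chain transcripts, rose too, as did the B lineage coactivator *Pou2af1* (0.79), the surface receptor *Slamf7* (0.73) and the ER stress transcription factor *Creb3l2* (0.48). *Prdm1*, which encodes BLIMP1, did not pass the test (adjusted p = 0.091), with 10.3 and 8.01 CPM in KO1134, 12.2 and 6.24 CPM in KO1308, and 12.7 and 2.63 CPM in WT. *Tnfrsf13b*, *Cd38*, *Cd28*, *Ly6k* and *Glcci1* did not pass either, with log2 fold changes from 0.00 to 0.34. *Bhlha15*, which encodes MIST1, a transcription factor of secretory cells, was not on a list and was chosen after its values were seen. It was at 7.37 and 1.48 CPM in KO1134, at 6.44 and 1.58 CPM in KO1308, and at 3.17 and 0.434 CPM in WT (log2 fold change 2.23, SE 0.37, edgeR adjusted p = 2.94e-04).

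**Figure D2:**
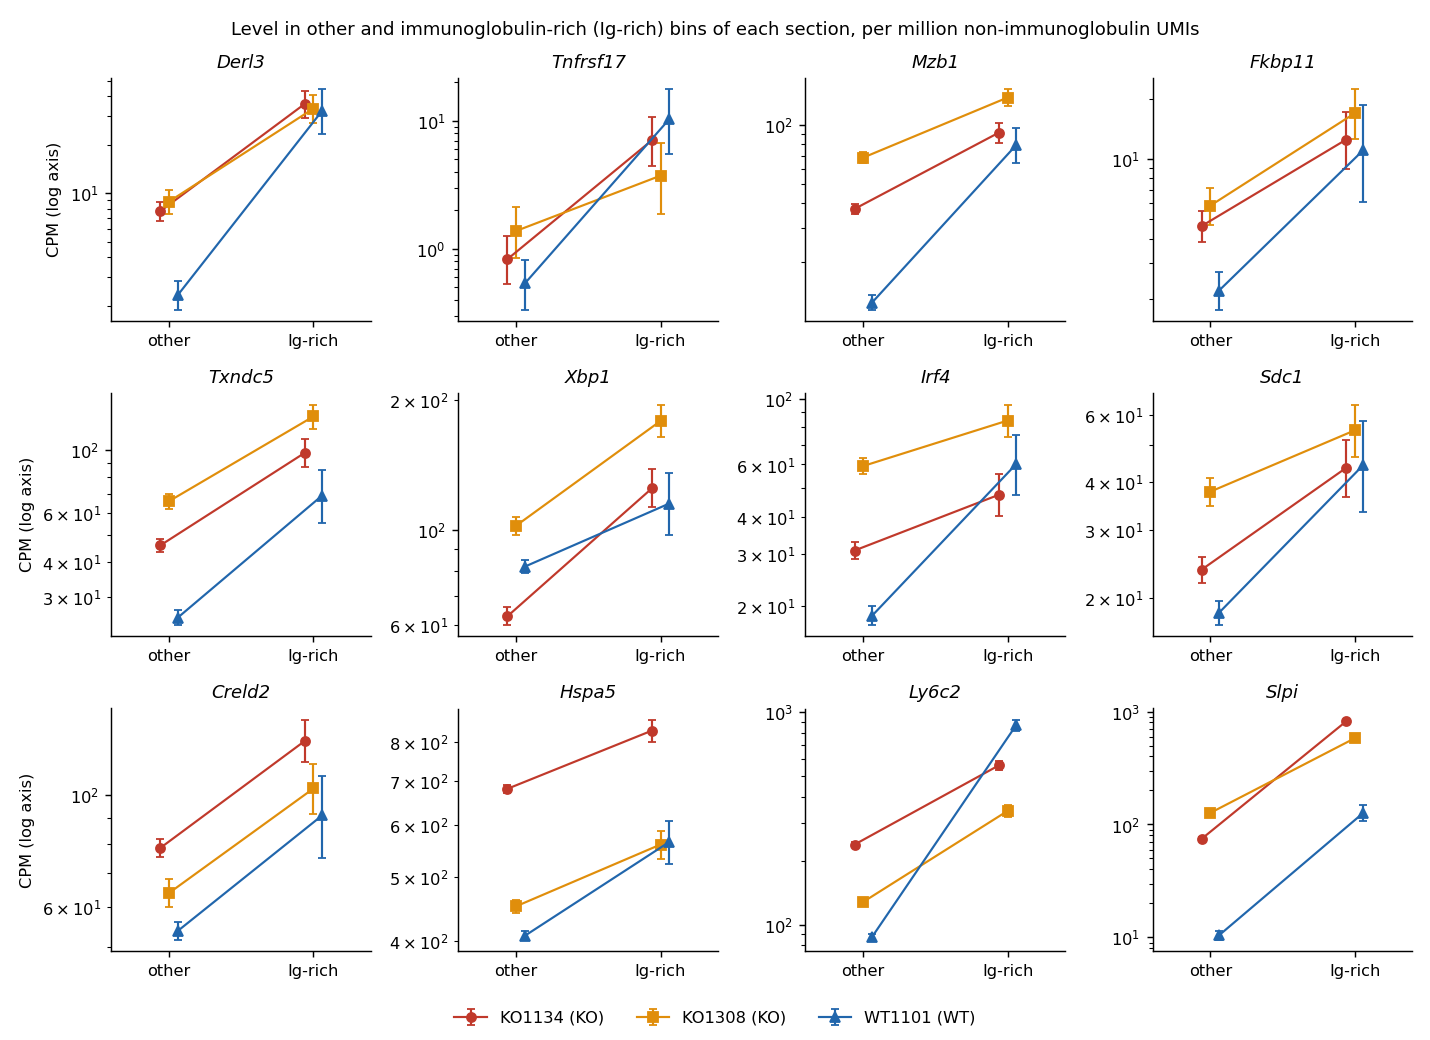
Level in other and immunoglobulin-rich (Ig-rich) bins of each section in CPM of non-immunoglobulin UMIs on a log axis, with exact 95% Poisson intervals as bars. Each of the 12 genes was higher in the Ig-rich bins of all 3 sections, by a log2 fold change from 0.33 for *Hspa5* to 2.97 for *Slpi*.

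Genes of the ER were described by the step at which they act on a new antibody chain. Of 22 genes for entry into the ER, 3 rose, none fell, and the median log2 fold change was 0.112. They were *Ssr4*, a subunit of the translocon-associated complex (log2 fold change 0.60, SE 0.08), and the signal peptidase genes *Sec11c* (0.35) and *Spcs3* (0.30). *Sec61b*, a subunit of the translocation channel, did not pass (0.11, adjusted p = 0.761). Of 26 genes for folding in the ER, 9 rose, none fell, and the median was 0.274. *Mzb1*, a B lineage cofactor of the ER chaperones, was at 91.6 CPM in immunoglobulin-rich and 37.4 CPM in other bins of KO1134, at 138 and 68.3 CPM in KO1308, and at 79.2 and 12.4 CPM in WT (log2 fold change 1.41, SE 0.15, adjusted p = 3.38e-07). *Fkbp11*, a prolyl isomerase of secretory cells, was at 12.5 and 4.62 CPM, 16.9 and 5.84 CPM, and 11.1 and 2.22 CPM in the same order (log2 fold change 1.61, SE 0.24). *Txndc5*, a disulphide isomerase, was at 97.7 and 45.9 CPM, 131 and 65.8 CPM, and 68.9 and 25.4 CPM (log2 fold change 1.09, SE 0.09). All 3 were higher in every section, with the largest ratio in WT and the largest difference in CPM in KO1308. The general chaperones moved less. *Hspa5* (BiP) was at 833 and 680 CPM in KO1134, at 560 and 452 CPM in KO1308 and at 565 and 407 CPM in WT (log2 fold change 0.33, SE 0.08), and *Hsp90b1* (GRP94) had a log2 fold change of 0.44. *Prdx4* (0.72), *Creld2* (0.68), *Pdia4* (0.54) and *Manf* (0.29) rose as well, whereas the lectin chaperones *Calr* (0.20) and *Canx* (-0.03) did not pass.

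Of 13 genes of ER-associated degradation, which returns misfolded chains to the cytosol, 5 rose, none fell, and the median was 0.277. Beside *Derl3* they were *Edem2* (log2 fold change 0.44), which trims mannose from misfolded glycoproteins, *Herpud1* (0.43) and *Sel1l* (0.37) of the HRD1 ubiquitin ligase complex, and *Selenok* (0.28). *Derl1*, a close relative of *Derl3*, had a log2 fold change of 0.01 (adjusted p = 0.99). None of 11 oligosaccharyltransferase genes (median 0.078) and none of 19 genes of ER to Golgi transport (median 0.16) passed the test. In the PERK and stress branch 1 of 9 genes rose, *Eif2ak3* (0.54), which encodes PERK itself, while *Atf4* (0.04) and *Ddit3* (0.06), further down that branch, did not pass.

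Promoters of these ER genes are shown because the ER stress response element, CCAAT and CCACG with 9 bases of any kind between them, is the textbook site of ER chaperone promoters. The 250 bases before each gene start were taken from RefSeq (GRCm38.p6) and read on both strands. The element occurred in 35 of 27025 genes with a promoter (0.13%), in 10 of the 96 genes with a promoter among the 116 genes of the 7 plasma cell and ER lists (10.4%), and in 4 of the 23 with a promoter among the 27 of these that rose (17.4%). The 4 were *Creld2*, *Derl3*, *Hsp90b1* and *Hspa5*. Another 6 genes of these lists, *Calr*, *Canx*, *Dnajc3*, *Ero1lb*, *Pdia6* and *Syvn1*, also held it and did not pass the test. The shorter element TGACGTGG, to which XBP1 is known to bind, was found in 163 genes (0.603%), in 5 of the 96 (5.21%) and in 2 of the 23 (8.7%), *Pou2af1* and *Txndc5*. A match describes the letters and is not evidence of binding. In the sequences below, written 5′ to 3′ on the strand of the gene and ending at the base before its RefSeq start, which can lie some bases from the GENCODE positions given elsewhere here, capitals mark each match to the longer element. They lie at chr10:75893148-75893397 (plus strand) for *Derl3*, chr2:34771840-34772089 (plus) for *Hspa5*, chr10:86705445-86705694 (minus) for *Hsp90b1* and chr15:88819396-88819645 (plus) for *Creld2*.
Derl3: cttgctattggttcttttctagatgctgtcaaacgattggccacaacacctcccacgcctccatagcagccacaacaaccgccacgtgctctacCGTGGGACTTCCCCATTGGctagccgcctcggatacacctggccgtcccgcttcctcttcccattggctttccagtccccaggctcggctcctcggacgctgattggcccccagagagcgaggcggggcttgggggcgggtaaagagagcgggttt
Hspa5: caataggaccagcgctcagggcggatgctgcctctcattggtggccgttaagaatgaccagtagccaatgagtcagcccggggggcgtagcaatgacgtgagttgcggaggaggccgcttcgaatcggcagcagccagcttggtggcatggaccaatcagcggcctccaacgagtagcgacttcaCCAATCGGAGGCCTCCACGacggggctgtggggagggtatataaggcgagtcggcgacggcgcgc
Hsp90b1: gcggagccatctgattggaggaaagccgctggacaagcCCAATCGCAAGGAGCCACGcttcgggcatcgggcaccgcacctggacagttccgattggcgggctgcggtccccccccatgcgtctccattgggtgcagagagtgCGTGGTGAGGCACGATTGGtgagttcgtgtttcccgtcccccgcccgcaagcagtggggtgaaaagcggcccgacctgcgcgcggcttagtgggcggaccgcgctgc
Creld2: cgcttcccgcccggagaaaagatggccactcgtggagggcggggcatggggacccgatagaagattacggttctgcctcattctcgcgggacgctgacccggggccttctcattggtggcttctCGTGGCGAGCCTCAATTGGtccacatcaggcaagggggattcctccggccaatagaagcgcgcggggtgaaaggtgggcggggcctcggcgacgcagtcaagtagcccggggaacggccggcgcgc

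The match in *Derl3* lay 156 to 138 bases before the RefSeq start and that in *Creld2* 126 to 108 bases before it, both on the reverse strand. *Hspa5* had a forward match at 65 to 47 bases. *Hsp90b1* had 2 matches, a forward one at 212 to 194 and a reverse one at 107 to 89 bases.

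Among genes called higher, the largest increase outside the immunoglobulin locus and the features that overlap it was in *Slpi*, which encodes a secreted inhibitor of leukocyte proteases found in mucosal fluids (chr2:164354070-164389095, minus strand). It was at 817 CPM in immunoglobulin-rich and 74.6 CPM in other bins of KO1134, at 580 and 127 CPM in KO1308, and at 127 and 10.4 CPM in WT. Behind these stood 2549, 1710 and 160 UMIs in immunoglobulin-rich bins. The log2 fold change was 2.97 (SE 0.15, edgeR adjusted p = 7.23e-14). The level in the immunoglobulin-rich bins of both KO sections was above that of WT. *Slpi* did not pass the main KO against WT test described below, and its result differed between the alternatives. *Slpi* had been listed with 10 other markers of secretory epithelium, of which 9 were abundant enough to be tested, and none of these passed. *Wfdc2*, its relative in that list, was at 6.09 and 10.9 CPM in KO1134, at 82.7 and 91.4 CPM in KO1308, and at 5.55 and 4.49 CPM in WT. *Lcn2* was at 0.32 and 1.34 CPM, 4.75 and 7.75 CPM, and 1.58 and 2.40 CPM. Summed over the list, secretory epithelium was at 856 and 140 CPM in KO1134, 918 and 448 CPM in KO1308 and 146 and 40.7 CPM in WT, with *Slpi* the most abundant gene in each section. *Muc5b* and *Pigr* were at 0 UMIs in the immunoglobulin-rich bins of KO1134 and *Gp2* and *Scgb3a1* in those of WT. *Mir7678*, which lies within *Slpi* and cannot be told apart from it here, was also called (log2 fold change 2.87).

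*Ly6c2*, which encodes a surface protein of the Ly6 family (chr15:75108158-75111970, minus strand), was at 562 and 238 CPM in KO1134, at 343 and 128 CPM in KO1308, and at 871 and 87.2 CPM in WT (log2 fold change 1.94, SE 0.21, adjusted p = 2.23e-07). Near-identical Ly6 genes could share its reads. *Tent5c*, a poly(A) polymerase that acts on immunoglobulin transcripts, was at 43.9 and 24.7 CPM, 64.1 and 32.0 CPM, and 36.5 and 9.31 CPM (log2 fold change 1.07, SE 0.14). *Reln* (reelin, an extracellular glycoprotein, 1.205), *Pon3* (a lactonase, 1.12) and *Enpp1* (an ectoenzyme that splits nucleotides, 0.82) were called as well, with 11.2 to 30.1 CPM in the immunoglobulin-rich bins of the 3 sections. *Prg2*, the eosinophil major basic protein gene, was at 17.3 and 4.62 CPM in KO1134, 9.83 and 7.55 CPM in KO1308, and 22.2 and 2.88 CPM in WT (log2 fold change 1.63, SE 0.29), while *Epx*, eosinophil peroxidase, was at 0 UMIs in the immunoglobulin-rich bins of KO1134 and WT. The granulocyte and mast cell list, of which *Prg2* was the only gene to pass, summed to 368 and 314 CPM in KO1134, 31.2 and 33.9 CPM in KO1308, and 57.0 and 52.5 CPM in WT. *Ccl8*, a chemokine gene, differed by section, with 83.3 and 48.4 CPM in KO1134, 149 and 56.9 CPM in KO1308, and 11.1 and 10.6 CPM in WT (log2 fold change 0.98, SE 0.12). The long noncoding RNA *Gm30211* (log2 fold change 3.38) spans *Igkc* and the *Igkj* segments, and *2010309G21Rik* (2.44) overlaps *Iglc1* and *Iglc3*, so their reads cannot be told apart from light chain reads. Without features overlapping immunoglobulin genes, 87 genes were higher and 218 lower.

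The levels of *Slpi* and *Derl3* were next set out by the immunoglobulin share of the bins. In bins with under 0.5% of the 7 genes, *Slpi* was at 37.9 CPM in KO1134, 63.8 CPM in KO1308 and 8.89 CPM in WT, and in bins with 10% or more it was at 2365, 1911 and 317 CPM. *Derl3* was at 6.06, 5.56 and 1.66 CPM in the lowest class and at 72.8, 92.1 and 119 CPM in the highest, which rested on 12, 4 and 9 UMIs. Bins of 1 to 2%, which were not counted as immunoglobulin-rich, had *Derl3* at 19.9, 11.8 and 10.1 CPM, so the threshold did not separate bins with and without the transcript. With distance, *Derl3* was at 11.005 CPM in KO1134, 12.1 CPM in KO1308 and 4.05 CPM in WT in other bins that touch an immunoglobulin-rich bin, and at 8.02, 8.43 and 1.72 CPM one bin further out. *Slpi* in KO1134 went from 817 CPM to 134 CPM in touching bins and 54.1 CPM in the next. In KO1308 it went from 580 to 193 and 111 CPM, and in WT from 127 to 15.3 and 6.75 CPM. Most of the difference lay within 1 bin width in each section. Whether transcripts had spread between bins was not tested.

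**Figure D3:**
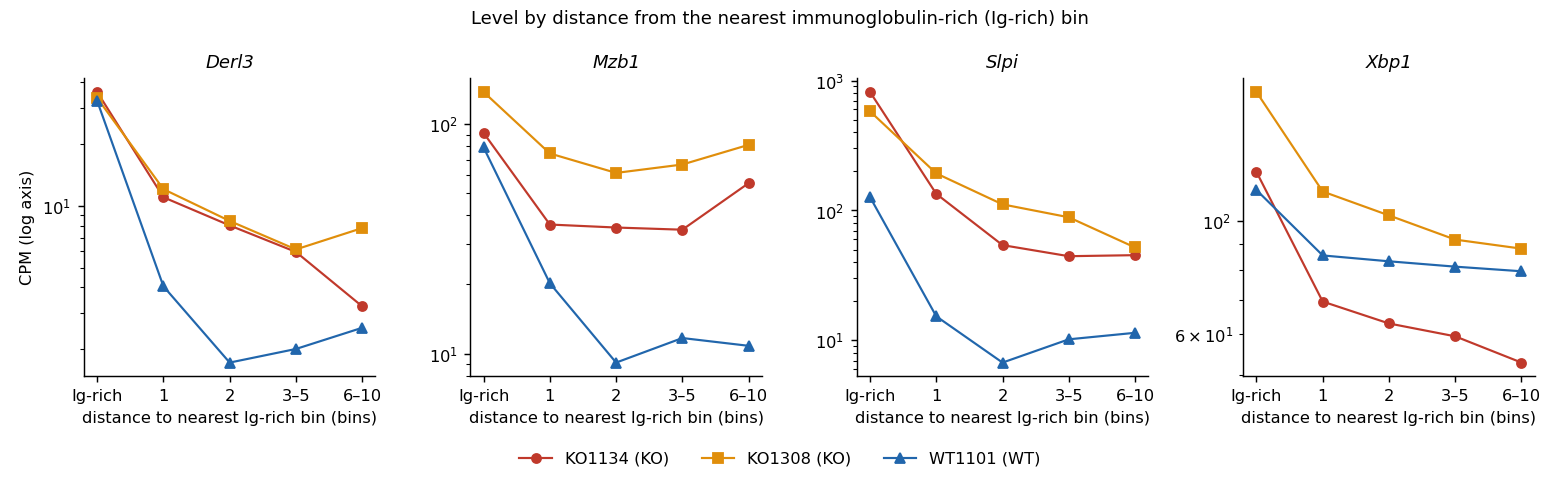
Level of 4 genes in immunoglobulin-rich (Ig-rich) bins and in other kept bins by distance in bins to the nearest Ig-rich bin, in CPM of non-immunoglobulin UMIs on a log axis, 1 line per section. *Derl3*, *Mzb1* and *Slpi* drop at the first neighbouring bin, as from 817 to 134 CPM for *Slpi* in KO1134, and *Xbp1* drops less.

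Mature B cell genes did not follow in every section. Summed over the list they were at 360 CPM in immunoglobulin-rich and 516 CPM in other bins of KO1134. The sums were 381 and 365 CPM in KO1308, and 160 and 118 CPM in WT. Of 14, none rose and 1 fell, *Cr2* (complement receptor 2, log2 fold change -1.18, adjusted p = 0.00541), and the median was -0.291. *Cd79a*, a chain of the B cell receptor that plasma cells also keep, was at 99.97 CPM in immunoglobulin-rich and 124 CPM in other bins of KO1134, at 82.0 and 64.6 CPM in KO1308, and at 46.7 and 13.6 CPM in WT. *Ms4a1* (CD20) was at 8.97 and 14.97 CPM, 16.6 and 16.5 CPM, and 3.17 and 1.66 CPM. The 3 sections did not share a direction for either gene. By distance, *Cd79a* in KO1134 was at 73.6 CPM in touching bins and at 277 CPM in bins 6 to 10 away. These levels were 65.9 and 59.7 CPM in KO1308, and 14.3 and 17.4 CPM in WT. The direction of *Cd79a* in KO1134 thus depended on which other bins were compared. None of 6 germinal centre genes (median -0.063) and none of 10 proliferation genes (median 0.129) passed the test.

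Among the genes for survival and homing, 1 of 15 rose. This was *Vcam1* (log2 fold change 0.31, adjusted p = 0.0191), an adhesion molecule of stromal cells, at 236 and 168 CPM in KO1134, 194 and 158 CPM in KO1308, and 163 and 142 CPM in WT. The call was lost against bins 2 to 5 away and against depth-matched bins. *Cxcl12*, a chemokine known to hold plasma cells in the bone marrow (0.15, adjusted p = 0.628), its receptor gene *Cxcr4* (0.10) and *Tnfsf13* (-0.44), which encodes APRIL, did not pass.

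Markers of other thymic cells described the surroundings of the bins. In the cortical epithelium list 2 of 6 genes rose, *Psmb11* (0.33), the thymoproteasome subunit, and *Tbata* (0.31). In the medullary epithelium list 2 of 8 fell, the chemokine gene *Ccl21a* (-0.50) and *Krt14* (-0.57). The C1q genes of macrophages, *C1qa* (0.29), *C1qb* (0.41) and *C1qc* (0.31), rose, while *Lyz2* fell (-0.36), and 5 other macrophage genes did not pass. Summed macrophage markers were at 1820 and 1974 CPM in KO1134, 1261 and 1101 CPM in KO1308, and 844 and 804 CPM in WT, so the list as a whole did not keep its direction. Of mature T cell genes *Ccr7* (-0.85) and *S1pr1* (-1.21) fell, of dendritic cell genes *Fscn1* (-0.95), and of endothelial genes *Kdr* and *Lyve1*. None of 10 cortical thymocyte genes passed (median -0.0083). Their part in the differences of the plasma cell genes was not tested.

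**Figure D4:**
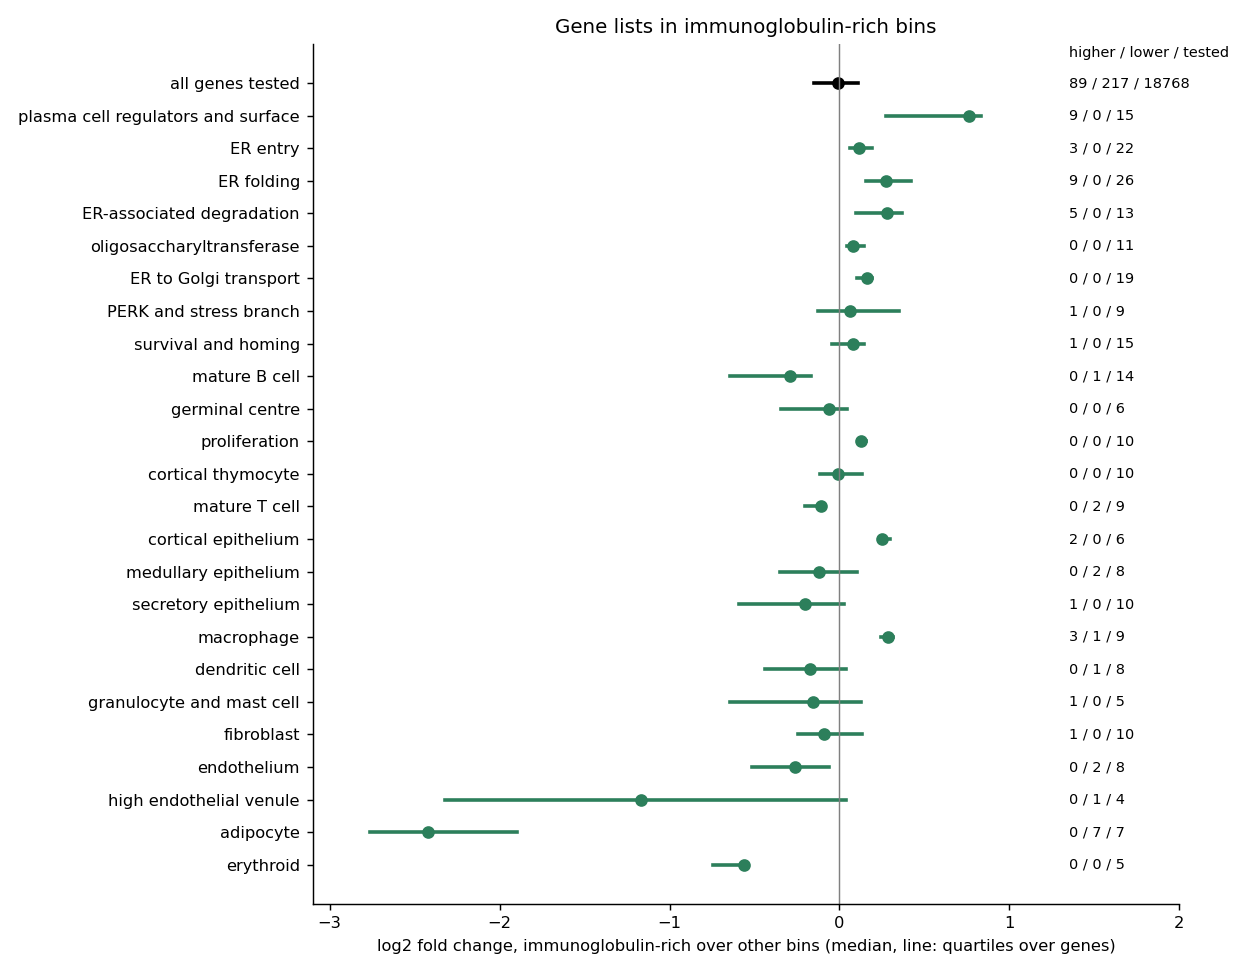
Log2 fold change between immunoglobulin-rich and other bins for each gene list (point: median over the genes tested; line: quartiles), with the number of genes higher, lower and tested at the right. The plasma cell regulators have the highest median (0.76) and the adipocyte genes the lowest (-2.42), against -0.0099 for all genes tested.

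The largest decreases were in fat cell genes. All 7 genes of the adipocyte list fell (median -2.42), and the change was carried by the KO sections. Summed over the list, immunoglobulin-rich bins were at 282 CPM in KO1134, 747 CPM in KO1308 and 107 CPM in WT. Touching bins were at 292, 1021 and 107 CPM, and all other bins at 1451, 2849 and 112 CPM. Much of the decrease in the KO sections thus lay against bins further away. *Adipoq* (adiponectin) was at 4.17 CPM in immunoglobulin-rich and 56.5 CPM in other bins of KO1134, at 19.0 and 97.5 CPM in KO1308, and at 0 and 1.198 CPM in WT. *Cidea*, a lipid droplet gene, had the largest decrease (log2 fold change -3.89, SE 0.20), with 1.92 and 50.2 CPM, 8.47 and 96.9 CPM, and 0 and 0.178 CPM. In WT, 4 of the 7 adipocyte genes were at 0 UMIs in immunoglobulin-rich bins, a level of at most 2.38 CPM by the 3 UMIs that a count of 0 allows, and none of the 4 was above that limit in other bins. *Fabp4* and *Plin4* were slightly higher in the immunoglobulin-rich bins of WT (102 and 95.6 CPM, and 3.17 and 2.83 CPM). *Pck1* (-3.37), *Gpd1* (-3.27), *Adig* (-3.26), *Ucp1* (-3.66), *Car3* (-2.42), *Scd1* (-2.29) and *Cfd* (-2.26) fell with them. *Glycam1*, of high endothelial venules, was at 18.3 and 131 CPM in KO1134, 12.9 and 30.5 CPM in KO1308, and 0 and 0.23 CPM in WT (log2 fold change -2.35). Of 34 genes of the mitochondrial genome, 21 fell, and nuclear copies of these genes among the calls are uncertain. Mitochondrial UMIs made up 0.952% of immunoglobulin-rich and 1.89% of other bins in KO1134, 1.09% and 2.41% in KO1308, and 0.721% and 0.810% in WT.

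The comparison was repeated with other bins chosen by position or depth. Against other bins 2 to 5 bins away only, 60 genes were higher and 92 lower of 17396. Of the plasma cell regulators 7 of 15 were higher, of the folding genes 8 of 26, and of the degradation genes 4 of 13, and 6 of 7 adipocyte genes were lower. Against other bins matched on UMIs per bin, 49 genes were higher and 114 lower of 14485. There 9 of 15 plasma cell regulators, 6 folding and 2 degradation genes were higher. *Vcam1*, *Eif2ak3*, *Spcs3*, *Tbata* and *Kdr* passed in neither comparison. *Psmb11*, *C1qa* and *Lyz2* did not pass against bins 2 to 5 away, nor *Krt14* against depth-matched bins. *Derl3*, *Mzb1*, *Slpi*, *Ly6c2*, *Txndc5*, *Xbp1* and *Sdc1* were among 32 named genes that kept call and direction. This held in every alternative that tested the gene, except DESeq2 and the fit without sections.

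After the values above were seen, IgA-dominated bins were set against IgG-dominated bins of the same section. Of 10025 genes tested, 20 (0.2%) were higher with IgA and 7 (0.0698%) with IgG, together 0.269%, by edgeR's quasi-likelihood test at an adjusted p below 0.05. No gene of the plasma cell and ER lists was among them. The fit gave every gene the same spread trend and no spread of its own, so a gene that varied between sections more than most has too small an SE and p. DESeq2 called 2 genes, *Ly6c2* (adjusted p = 4.25e-09) and *Gm30211*, both higher with IgG, and *Krt5* (0.0625) and *Ccl21a* (0.0658) came next. The other genes below were called by edgeR alone. *Slpi* was at 439 CPM in IgA-dominated and 1553 CPM in IgG-dominated bins of KO1134, at 558 and 1177 CPM in KO1308, and at 140 and 144 CPM in WT, with no difference in WT to match that in the KO sections. The fitted log2 fold change of -1.35 does not carry this spread between sections, and DESeq2 did not call the gene. *Ly6c2* was at 355 and 842 CPM, 167 and 509 CPM, and 684 and 1227 CPM, higher with IgG in 3 of 3 sections (log2 fold change -1.19). In the mature T cell list 1 of 9 genes tested was higher with IgG, *S1pr1* (-1.43), and the median was -0.105.

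Of the medullary epithelium list, 2 of 5 genes tested, *Krt5* and *Ccl21a*, were higher with IgA (median 0.884, against -0.0033 over all genes). *Krt5*, a basal keratin, was at 194 and 75.9 CPM in KO1134, at 428 and 175 CPM in KO1308, and at 61.2 and 29.5 CPM in WT (log2 fold change 1.27). *Ccl21a*, the chemokine that draws developing T cells to the medulla, was at 571 and 305 CPM, 367 and 131 CPM, and 61.2 and 29.5 CPM (log2 fold change 1.00), and near copies of it, *Gm13304* and *Gm21541*, were called but cannot be told apart from it. *Aire*, the regulator of tissue antigens in medullary epithelium, did not pass and was at 21.6 and 26.2 CPM, 28.0 and 38.3 CPM, and 2.92 and 7.37 CPM, on 2 UMIs in each class of WT. *Krt14* did not pass either, at 40.6 and 12.4 CPM, 44.0 and 65.7 CPM, and 5.83 and 22.1 CPM, with no shared direction. *Wfdc18* (2.30), *Krt17* (0.84), *Ubd* (0.77), *H2-Ab1* (0.46), *H2-Aa* (0.36) and *Ctss* (0.45), were higher with IgA in 3 of 3 sections. The last 3, which belong to the class II presentation pathway, were picked from the calls and not from a list. *Fcgbp*, which binds mucins, was at 469 and 149 CPM in KO1134 and 594 and 246 CPM in KO1308 but at 77.2 and 95.8 CPM in WT. Without KO1134 the calls dropped from 27 to 5, namely *Slpi*, *Ly6c2*, *Ccl21a*, *Krt5* and *Gm30211*, and without KO1308 or WT there were 28 and 31.

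**Figure D5:**
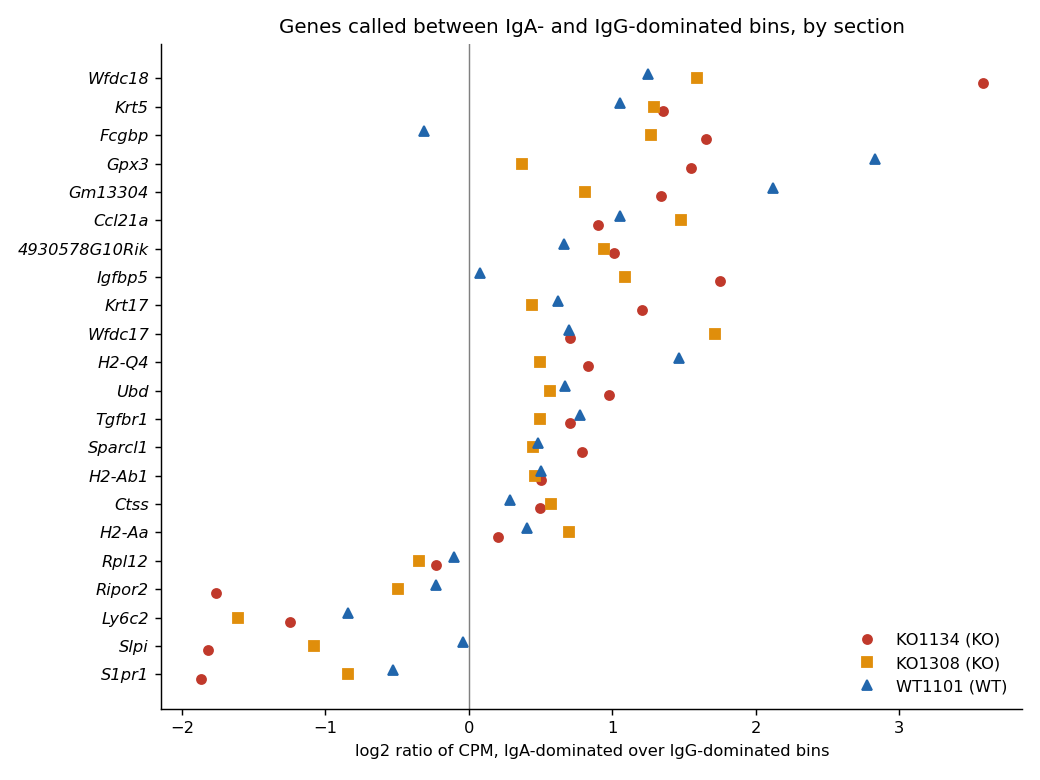
Log2 ratio of CPM between IgA-dominated and IgG-dominated bins for each called gene outside immunoglobulin loci with UMIs in all sums, 1 symbol per section. *Ly6c2* lies on the IgG side and *Krt5* and *Ccl21a* on the IgA side in all 3 sections, whereas *Slpi* lies near 0 in WT.

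The last question was whether immunoglobulin-rich bins differ between KO and WT. With 2 KO sections and 1 WT section, the spread came from the KO sections alone, and genotype cannot be told apart from the longer permeabilisation of the KO tissue. Of 14179 genes tested, 54 (0.381%) were higher and 22 (0.155%) lower in KO, but the total of 76 ranged from 0 to 226 over the alternatives. A gene was tested with at least 10 UMIs in 2 of the 3 sums, so one found in KO alone could enter and one found in WT alone could not, and the split between the directions is not read further. *Cdkn2a*, which encodes the tumour suppressors p16INK4a and p19ARF, was at 88.4 CPM in KO1134 and 48.5 CPM in KO1308 against 1.58 CPM in WT (log2 fold change 5.32, SE 0.82, edgeR adjusted p = 0.00359), with 2 UMIs behind the WT value, so that the gene entered the test through the KO sections. It was at 59.4, 51.5 and 0.918 CPM in the other bins, for which no test between genotypes was made. *Scfd1*, of ER to Golgi transport, was at 64.7 and 62.0 CPM against 479 CPM in WT (adjusted p = 0.00359). These 2 genes and *Gm36283* were called in every alternative except the 5% threshold, under which none was called. *Gm36283* had 8 UMIs in WT and so entered through the KO sections as well. All these alternatives rest on the same WT section. *Scd1*, *Cfd*, the T cell chemokine receptor gene *Cxcr3* and *Car3* were called higher in KO with 4, 2, 1 and 0 UMIs in WT, and they too entered through the KO sections. No gene of the plasma cell regulator, ER entry, folding or degradation lists was called, with list medians from -0.26 to 0.36. This does not show that their levels were alike. The survival and homing list (median 0.317) holds *Cxcr3*, at 34.0 and 35.6 CPM in KO1134 and KO1308 against 0.79 CPM in WT. It also holds the chemokine gene *Cxcl9*, at 54.5 and 47.8 CPM against 3.96 CPM. *Cxcl9* had 5 UMIs in WT and also entered through the KO sections.

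The difference between immunoglobulin-rich and other bins was itself compared between genotypes. By edgeR's test of the interaction, 61 of 18768 genes (0.325%) had a larger log2 fold change in WT and 4 (0.0213%) in KO. The total of 65 ranged from 9 to 101 over the alternatives. The 61 held *Fabp4* (-2.11 on the log2 scale) of the adipocyte list and genes of the mitochondrial genome such as *mt-Nd4* (-1.35). Both were lower in the immunoglobulin-rich bins of the KO sections and about level in WT. *Derl3* was 14-fold higher in immunoglobulin-rich than in other bins of WT, and 4.65-fold and 3.79-fold higher in KO1134 and KO1308 (interaction -1.79 on the log2 scale, SE 0.38, adjusted p = 0.00307). *Mzb1* (-1.59), *Pou2af1* (-2.07), *Irf4* (-1.20) and *Ly6c2* (-2.06) also differed in this direction. Of these genes *Pou2af1* and *Ly6c2* were called in all 9 alternatives, *Mzb1* in 8 of 9, *Irf4* in 6 of 9, and *Derl3* in 6 of the 8 that gave it a p. In other bins, the 7 selecting genes held 0.414% of UMIs in KO1134, 0.714% in KO1308 and 0.148% in WT, so the comparison bins of the KO sections were themselves richer in immunoglobulin. The part of this background in the interaction was not tested.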

How the data were processed

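Thymus sections of 2 KO mice and 1 WT mouse were analysed from UMI counts per gene and barcoded spot. The authors made these counts with BSTMatrix and STAR against GRCm38 and deposited them as raw whole-number counts without normalisation, with barcodes marking spots and UMIs marking molecules. Totals were 31237062 (KO1134), 21089885 (KO1308) and 41581477 UMIs (WT1101), on 333982, 833765 and 817308 spots. Between 5572 and 13670 barcode sequences were shared by pairs of sections. The authors' removal of folds was not repeated, and their cell annotation was not used here.

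Spots were summed in 27 µm bins, and bins were kept at 300 genes and 30% mitochondrial UMIs, the study's own limits. All 397 immunoglobulin genes, *Jchain* included, were left out of the fits and of the library sizes. Sums over immunoglobulin-rich and other bins were fitted with edgeR 4.0.16 (R 4.3.3, TMM, quasi-likelihood F test, section as a block) for genes with at least 10 UMIs in 3 of 6 sums (2 of 3 for KO against WT). KO was compared with WT on the 3 sums of immunoglobulin-rich bins, which leaves 1 residual degree of freedom, against 2 for the comparison of bins. The prior degrees of freedom were 25.8 for the comparison of bins, 23.5 for KO against WT, 210 for the interaction and infinite for IgA against IgG, so the last 2 take almost no spread from the single gene. p-values were Benjamini-Hochberg adjusted over all genes tested, and SE was taken from the fold change and its F statistic. DESeq2 1.42.0 was an alternative. Intervals are exact binomial or Poisson intervals at 95% and cover counting error only. Gene positions are from GENCODE (GRCm38), in which 54809 of 54838 features were found. Bins are not replicates; the sections, from separate mice, are.

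Named genes were the 15 largest and 10 smallest log2 fold changes among called genes of at least 20 CPM with 1 sign in the 3 sections, for each list its 3 most abundant and 2 most extreme members, all called members of the plasma cell regulator, folding and degradation lists, and 5 genes in each direction for KO against WT. Other genes named in the text were chosen after their values were seen. The members and the 24 gene lists were chosen with earlier results of these data known. The IgA against IgG comparison, with DESeq2 as its alternative test, and the fit without features overlapping immunoglobulin genes were added after seeing the data. Alternatives covered bin width, threshold, tissue groups, comparison bins, scaling, test, low counts, the block and each section left out. On counts simulated for the comparison of bins (18662 genes, 200 changed), 100% of genes changed 1.5-fold or 2-fold were called and 0.065% of unchanged genes. Every simulation used the dispersion of this comparison, 0.00462, and changed abundant genes only. That dispersion describes paired sums within sections and leaves out the spread between mice. The KO against WT rates that follow therefore do not show what the real test could find. For KO against WT (14217 genes), 100% of genes raised 2.25-fold or 4-fold and 92% of those lowered 2.25-fold were called. For the interaction (18683 genes), 72% of genes raised and 60% of those lowered 2-fold were called, and 8% and 6% of those changed 1.5-fold.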

Additional observations from a re-analysis of the deposited data

Results flagged for a closer look

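For 65 genes the difference between immunoglobulin-rich and other bins itself differed between KO and WT by edgeR's interaction test (adjusted p below 0.05), 61 with a larger log2 fold change in WT and 4 in KO. The 15 of them chosen by the rule for named genes are given here, all larger in WT. Values are KO minus WT in log2 units, and a negative value means a smaller ratio of immunoglobulin-rich to other bins in KO. Among them were *Derl3* (-1.79), *Mzb1* (-1.59), *Pou2af1* (-2.07), *Irf4* (-1.20), *Tent5c* (-1.11) and *Ly6c2* (-2.06), all of which were higher in immunoglobulin-rich bins of each section. *Reln* (-1.79), *Pon3* (-2.45) and *Enpp1* (-1.66) had the same sign. *Gm30211* (-2.11) and *2010309G21Rik* (-1.72) overlap light chain genes, *Igkc* of the selection among them, so their values are set in part by the choice of bins. *Tent5c* was called in none of 9 alternatives, *Hba-a1* in 1 of 8 and *Enpp1* in 3 of 8, and *Ly6c2*, *Pou2af1* and *Fabp4* in all 9.

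*Cd79a* (-1.85) was higher in immunoglobulin-rich bins of WT and KO1308 and lower in those of KO1134. *Fabp4* (-2.11) was lower in immunoglobulin-rich bins of both KO sections and about level in WT. *Hbb-bs* (-1.79) and *Hba-a1* (-2.26), the globin genes of red blood cells, were on few UMIs and share reads with near-identical copies. The comparison bins held more immunoglobulin in KO, with shares of 0.414% in KO1134 and 0.714% in KO1308 against 0.148% in WT, and the part of this was not tested. With 1 WT section, the WT ratio has no replicate.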

How the results depend on the processing

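The genes called higher in immunoglobulin-rich bins numbered 89 and stayed within 1.5 times of this with 20 µm bins, a 5% threshold, at least 20 UMIs, connected tissue, bins 2 to 5 away and RLE factors. They numbered 58 with 50 µm bins, 59 at a 1% threshold, 49 against depth-matched bins, 48 with no low-count filter, 36 with DESeq2 (51 lower, a different split), and 42 to 79 with 1 section left out. The 217 lower calls became 111 at 5%, 92 against bins 2 to 5 away, 114 against depth-matched bins, 51 with DESeq2, and 142 to 294 with 1 section left out. Without the section as a replicate block, edgeR called 0 higher and 0 lower, with 86 genes at an unadjusted p under 0.05; the blocked sums come from the same section and mouse, so the pairing is given by the design. Of 61 called genes with a name in the text, 34 kept call and direction with DESeq2, 44 at 1%, 61 with RLE factors and 42, 46 of 58 and 50 without KO1134, KO1308 and WT, and no gene reversed.

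KO against WT gave 76 calls, and 10 with 20 µm bins, 5 with 50 µm bins, 7 at 1%, 0 at 5% (1130 genes at an unadjusted p under 0.05), 18 with at least 20 UMIs, 214 in connected tissue, 6 with RLE factors, 21 with DESeq2 and 226 with no low-count filter. The interaction gave 65 calls, and 9 with 50 µm bins, 101 at 1%, 11 at 5%, 26 with at least 20 UMIs, 35 in connected tissue and 22 with DESeq2. IgA against IgG gave 27, and 2 with DESeq2 and 5 to 31 with 1 section left out. The causes were not tested.

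The share of immunoglobulin-rich bins in KO1134 was 10.2% with 50 µm bins, 18.9% at 1% and 2.57% at 5%. In KO1308 it was 17.0% with 20 µm bins, 10.9% with 50 µm bins, 41.9% at 1%, 2.30% at 5% and 10.5% with at least 20 UMIs. In WT it was 5.85% at 1%, 0.862% at 5% and 2.59% with at least 20 UMIs. The order KO1308, KO1134, WT thus held at 1% and not at 5%. Few UMIs limit what depth could show, as for *Bhlha15*, with 4 UMIs in the immunoglobulin-rich bins of WT.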
